A study of Mus musculus with 37 samples.

Results

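A set of 10 genes that mark dendritic cells or a stage of them was followed through RNA from tagged ribosomes of mouse lymph nodes and spleen: Clec9a, Batf3, Xcr1, Irf8, Itgae, Clec10a, Flt3, Zbtb46, Ccr7 and Siglech. They were chosen by name, with earlier results of these data known. These 10 are among the 56351 genes of the deposited table, each on a single row, and all 10 entered both models described here. The mice carried a Cre recombinase knocked into both copies of the CD169 (Siglec1) locus and were homozygous for the Rpl22HA allele, which gives a ribosomal protein a haemagglutinin tag once Cre has acted, and an antibody to the tag then pulls down ribosomes with their mRNA. The protocol text describes the tagged allele as activated in all tissues, while the cell type label reads cd169 macrophages. Every group shares these alleles, no strain, age or sex is given, and the groups differ by tissue site only. Spleen and 11 lymph node sites gave 3 libraries each: the mediastinal, iliac, inguinal, deep cervical and super cervical nodes, the celiac and liver nodes, and the ceco-colonic, ileal, jejunal and duodenal nodes. These came with 1 isotype control library from jejunal node. The 37 libraries carry no label that says whether replicates came from separate animals, so p-values measure only the spread between these libraries.

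Conventional dendritic cells carry antigen from tissue to the draining lymph node and present it to T cells. They arise from precursors that respond to the growth factor FLT3L through the receptor FLT3. Among immune cells, the transcription factor ZBTB46 is largely restricted to their lineage. The cross-presenting type 1 cells (cDC1) depend on the transcription factors IRF8 and BATF3, display the dead-cell receptor CLEC9A and the chemokine receptor XCR1, and in many tissues carry the integrin CD103, encoded by Itgae. The lectin CLEC10A (CD301) is shared by type 2 dendritic cells (cDC2) and macrophages. CCR7 steers mature dendritic cells, and also naive T cells, towards CCL19 and CCL21, while SIGLECH is a surface lectin of plasmacytoid dendritic cells (pDC) that some macrophages make as well. Several of these genes are thus not restricted to dendritic cells.

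Depth set what could be compared. Library totals ran from 1165387 to 69139450 counts in the 22 libraries of 1000000 counts or more, and from 221911 to 917912 in the 14 others. The features with ribosomal sequence (Lars2, Gm19220 and Rn18s-rs5) held 39.0% to 85.6% of the counts in those 14 and 1.97% to 42.7% in the deeper 22. Spleen and the ileal, ceco-colonic, mediastinal, inguinal, super cervical and deep cervical nodes had 3 libraries in the deeper group and jejunal node had 1. The ileal libraries, at 18811172 to 31849079 counts, and the mediastinal ones, at 41240156 to 69139450, were the deepest. Siglec1, the gene whose locus carries the Cre, lay between 0 and 3.12 CPM (a count divided by its library's total, here adjusted by the TMM method, times 1000000) in the 21 libraries of those 7 sites. Marco, a scavenger receptor of sinus macrophages, lay between 151.6 and 6981 CPM. In bulk RNA of this kind, fewer cells of a type and less RNA per cell cannot be told apart.

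RefSeq promoter windows in the GRCm38.p6 build were matched for 7 of the 10 genes. The 250 bases before the annotated start of 3 of them are printed, because Clec9a and Batf3 are the cDC1 genes that the ileal comparison turns on and Zbtb46 is the other matched gene whose window held a searched pattern. The Clec9a window lies on the plus strand at chr6:129408612-129408861, the Batf3 window on the plus strand at chr1:191098164-191098413 and the Zbtb46 window on the minus strand at chr2:181424389-181424638. Capitals mark a match to 1 of 4 letter patterns searched on both strands: AP-1 (TGANTCA), a pair of interferon regulatory factor half-sites, a composite of both factors (GAAANTGA) and PU.1 (GAGGAAG).
Clec9a: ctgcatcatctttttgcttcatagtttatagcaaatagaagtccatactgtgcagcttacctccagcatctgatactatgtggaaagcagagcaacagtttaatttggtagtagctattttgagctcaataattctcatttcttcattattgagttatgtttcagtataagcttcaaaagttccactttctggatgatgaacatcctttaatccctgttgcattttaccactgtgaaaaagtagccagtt
Batf3: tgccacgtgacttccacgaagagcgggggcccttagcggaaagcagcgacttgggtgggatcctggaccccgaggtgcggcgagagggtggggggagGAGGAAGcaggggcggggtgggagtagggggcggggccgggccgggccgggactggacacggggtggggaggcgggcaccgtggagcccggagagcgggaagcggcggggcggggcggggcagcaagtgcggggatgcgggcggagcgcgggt
Zbtb46: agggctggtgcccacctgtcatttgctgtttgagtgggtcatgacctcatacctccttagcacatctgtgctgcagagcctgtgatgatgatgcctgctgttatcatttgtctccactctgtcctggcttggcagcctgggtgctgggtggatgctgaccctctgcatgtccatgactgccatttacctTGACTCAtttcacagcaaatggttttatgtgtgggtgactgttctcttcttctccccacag
The Batf3 window held the PU.1 letters at 153 to 147 bases before the start, and the Zbtb46 window held the AP-1 letters TGACTCA at 61 to 55 bases before it. No match was found in the Clec9a window, nor in those of Xcr1, Flt3, Siglech and Irf8. Over 32851 windows of the same length, 6.75% held the AP-1 letters, 10.6% the PU.1 letters, 4.93% the composite and 2.98% the half-site pair. The base composition differed widely, with 35.6% G and C in the Clec9a window, 38.8% in that of Xcr1 and 76.0% in that of Batf3, against a median of 52.4% over all windows. These matches describe letters only.

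Among the cDC1 genes, Clec9a and Batf3 were highest in the ileal node, Irf8 and Itgae in the mediastinal node and Xcr1 in spleen. Clec9a (ENSMUSG00000046080), the receptor for exposed actin of dead cells, stood at 9.50, 15.2 and 8.31 CPM in the 3 ileal libraries, at 4.55, 4.05 and 5.95 in mediastinal and at 2.78, 2.37 and 5.43 in ceco-colonic node. It held 2.38, 1.81 and 1.90 CPM in inguinal, 0, 1.48 and 0.897 in super cervical and 1.30, 0.622 and 1.70 in deep cervical node, and 0, 1.12 and 0 in spleen. All 3 ileal values lay above every library of the other 6 sites. Mediastinal and ceco-colonic ranges overlapped, and so did those of deep cervical node, super cervical node and spleen.

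Batf3 (ENSMUSG00000026630), the AP-1 family factor that cDC1 need, followed the same first 3 ranks. Its ileal libraries held 35.9, 41.0 and 36 CPM, the mediastinal ones 19.7, 23.0 and 20.1 and the ceco-colonic ones 24.8, 20.8 and 12.2. Inguinal node had 13.3, 11.2 and 12 CPM, super cervical 12.5, 11.8 and 13.9, deep cervical 3.91, 8.87 and 10.1, and spleen 4.34, 6.58 and 1.11. Again the ileal libraries stood above all others, and mediastinal and ceco-colonic nodes overlapped.

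Xcr1 (ENSMUSG00000060509), the receptor for XCL1, did not follow Clec9a and Batf3. Its spleen libraries held 5.78, 4.98 and 18.8 CPM, super cervical node 7.29, 9.74 and 5.47 and ileal node 6.45, 7.82 and 5.96. The other sites averaged 3.53 ± 0.93 CPM in ceco-colonic, 3.52 ± 0.32 in mediastinal, 2.74 ± 1.67 in inguinal and 1.39 ± 1.37 in deep cervical node (SD, n = 3 each). The high spleen mean rests on replicate 3, the shallowest deep library, where 18.8 CPM came from 16.7 counts. Spleen, super cervical and ileal ranges overlapped.

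Irf8 (ENSMUSG00000041515), a factor that cDC1, pDC, monocytes and B cells all use, reached 173, 241 and 274 CPM in mediastinal node and 115, 153 and 100.4 in ileal node. It averaged 68.7 ± 7.98 CPM in ceco-colonic, 57.4 ± 32.5 in super cervical, 45.7 ± 15.9 in inguinal and 42.5 ± 30.8 in deep cervical node, and 16.0 ± 12.1 in spleen. Mediastinal, ileal and ceco-colonic nodes formed 3 steps without overlap, and the rest overlapped their neighbours in the order. Itgae (ENSMUSG00000005947), which encodes the integrin alpha E chain found on cDC1 of barrier tissues and on T cells, was low throughout. It averaged 4.51 ± 0.16 CPM in mediastinal node, 3.04 ± 1.20 in super cervical, 2.49 ± 0.52 in ileal, 2.45 ± 1.13 in inguinal and 1.75 ± 0.31 in ceco-colonic node, with 0.577 ± 0.320 in deep cervical node and 0.535 ± 0.927 in spleen.

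**Figure D1:**
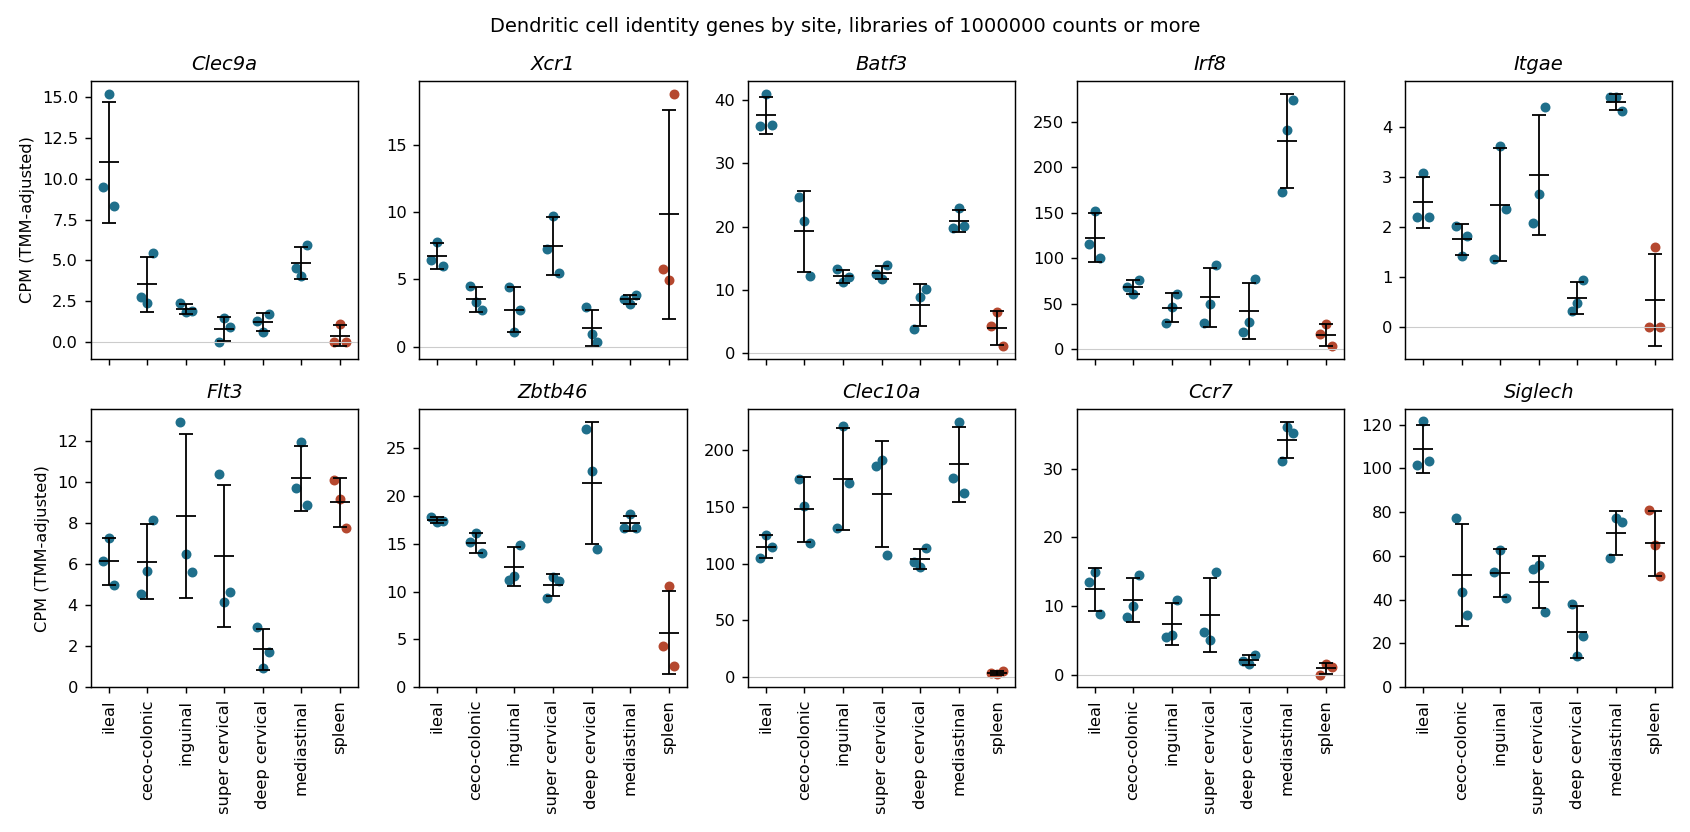
Each panel plots 1 gene in CPM (TMM-adjusted totals, linear axis) for the 7 sites with 3 libraries of 1000000 counts or more; points are libraries, and black bars are the mean and SD. Ileal points stand above all other sites for Clec9a, Batf3 and Siglech, mediastinal points for Irf8 and Ccr7, and Clec10a is at 2.57 to 5.53 CPM in spleen.

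Of the lineage genes, Flt3 (ENSMUSG00000042817) was highest in mediastinal node, at 9.71, 12 and 8.90 CPM, followed by spleen at 10.1, 9.15 and 7.75. It averaged 8.36 ± 3.99 CPM in inguinal node, and super cervical, ileal and ceco-colonic means lay between 6.13 and 6.4 CPM. Deep cervical node stood lowest, at 2.93, 0.934 and 1.70 CPM, below every ceco-colonic library. Zbtb46 (ENSMUSG00000027583) went the other way, with its highest mean in deep cervical node at 27.0, 22.6 and 14.5 CPM. It stood at 17.8, 17.3 and 17.4 CPM in ileal and 16.6, 18.1 and 16.7 in mediastinal node, and averaged 15.1 ± 1.03 in ceco-colonic, 12.6 ± 2.03 in inguinal and 10.7 ± 1.14 in super cervical node and 5.72 ± 4.36 in spleen. The spread among deep cervical libraries covered the ileal and mediastinal ranges.

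Clec10a (ENSMUSG00000000318) was abundant in the 6 nodes with 3 deeper libraries each and low in spleen. In shallow libraries, pooled by site on plain totals, it ran from 0 CPM in duodenal to 14.8 in jejunal node. Node means ran from 103.9 ± 8.50 CPM in deep cervical to 187.2 ± 32.8 in mediastinal node, with overlapping ranges at each step of the order. The spleen libraries held 3.61, 2.57 and 5.53 CPM. Ccr7 (ENSMUSG00000037944), the homing receptor of mature dendritic cells and naive T cells, reached 31.2, 36.1 and 35.2 CPM in mediastinal node, above all other libraries. It averaged 12.4 ± 3.14 CPM in ileal, 10.9 ± 3.19 in ceco-colonic, 8.72 ± 5.38 in super cervical and 7.37 ± 3.03 in inguinal node, with 2.14 ± 0.69 in deep cervical node and 0.904 ± 0.822 in spleen. Siglech (ENSMUSG00000051504) held 101.7, 121.6 and 103.2 CPM in ileal node and 58.9, 77.2 and 75.3 in mediastinal node. Its other means were 65.7 ± 15 CPM in spleen, 52.0 ± 11 in inguinal, 51.3 ± 23.1 in ceco-colonic, 48.0 ± 12 in super cervical and 25.3 ± 12 in deep cervical node. Over the 7 sites, mediastinal node had the highest mean for 5 of the 10 genes, ileal node for 3, and deep cervical node and spleen for 1 each.

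The first comparison set the ileal node, the small-intestinal site with 3 deep libraries, against the mean of mediastinal, inguinal, deep cervical and super cervical nodes, whose titles name no digestive organ. Clec9a, Batf3 and Siglech were higher in the ileal node, and the other 7 genes did not pass. Clec9a rose by a log2 fold change of 2.56 ± 0.36 (± SE, here and below), Batf3 by 1.57 ± 0.28 and Siglech by 1.25 ± 0.29, with adjusted p = 3.16e-05, 0.000835 and 0.00957 in edgeR's quasi-likelihood test with Benjamini-Hochberg adjustment over 19651 genes. All 3 genes lay above the 12 reference libraries in all 3 ileal libraries, and the ranges of the other 7 genes overlapped. Of all genes tested 1.48% had ileal libraries above every reference library. Among all genes tested 2.9% passed, 1.62% as higher and 1.28% as lower, and the median log2 fold change was 0.66 over the 10 genes against -0.0047 over all genes.

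Xcr1 changed by 1.19 ± 0.41 (adjusted p = 0.138, edgeR), Irf8 by 0.78 ± 0.38 (adjusted p = 0.407) and Ccr7 by 0.53 ± 0.34 (adjusted p = 0.617) without passing. Clec10a stood at -0.41 ± 0.29 (adjusted p = 0.686), and Flt3, Zbtb46 and Itgae between 0.17 and 0.23 with adjusted p of 0.907 to 0.974. The Siglech call was lost without any 1 of the ileal libraries (adjusted p = 0.0552, 0.109 and 0.0535 without replicate 1, 2 and 3), without deep cervical node among the references (0.136) and with all 36 libraries in the fit (0.205). Xcr1 passed in limma voom (1.37, adjusted p = 0.0205), without deep cervical replicate 1 (1.44, 0.0194) and without super cervical node among the references (1.63, 0.0249). It also passed, at 1.76, in libraries of 5000000 counts or more, where inguinal, super cervical and deep cervical nodes keep 1 library each.

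The calls depended on which node was the reference. Mediastinal node, chosen as a single reference after its values were seen, came closest to the ileal node in Clec9a, with a log2 fold change of 1.18 ± 0.48 (adjusted p = 0.0895, edgeR), and in Batf3 (0.85 ± 0.39, adjusted p = 0.122) and Siglech (0.63 ± 0.39, adjusted p = 0.257). Ccr7 was the 1 gene of the 10 that passed there, lower in the ileal node by -1.46 ± 0.44 (adjusted p = 0.0278), where 15.3% of all genes passed, 8.27% as higher and 7.04% as lower. The library ranges of the ileal node lay above the mediastinal ones for 4 of the 10 genes and below them for 5, where they did so for 31.2% and 36.6% of all genes tested. Leaving mediastinal node out of the references, Irf8 (1.34, adjusted p = 0.0443) and Ccr7 (1.20, adjusted p = 0.0475) passed as higher in the ileal node. With site means as replicates, 1 ileal value against 4, no gene passed in limma, where 80 of 19651 genes had an unadjusted p under 0.05.

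The ceco-colonic node, the large-intestinal counterpart, was set against the same 4 reference sites, so the comparison shares them with the ileal one. None of the 10 genes passed, and 0 had an unadjusted p under 0.05, where 4.13% of all genes passed in edgeR, 2.83% as higher and 1.3% as lower. DESeq2 and limma voom called 0 of the 10 as well. Clec9a stood at a log2 fold change of 0.90 ± 0.47 (adjusted p = 0.252) and Batf3 at 0.62 ± 0.31 (adjusted p = 0.236), beside 2.56 and 1.57 in the ileal node. Siglech stood at 0.17 ± 0.31 (adjusted p = 0.789) and Xcr1 at 0.28 ± 0.51 (adjusted p = 0.787).

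The difference between the 2 intestinal nodes was tested directly. Clec9a was 1.66 ± 0.55 higher in the ileal than in the ceco-colonic node on the log2 scale (adjusted p = 0.163, edgeR), Siglech 1.08 ± 0.40 (adjusted p = 0.210) and Batf3 0.96 ± 0.40 (adjusted p = 0.272). These 3 had an unadjusted p under 0.05, and 0 of the 10 genes passed after adjustment in edgeR or limma voom, where 0.265% of all genes did in edgeR, 0.214% as higher in the ileal node and 0.0509% as lower. Clec9a, Batf3 and Siglech passed in DESeq2 (1.74, 1.02 and 1.15 with adjusted p = 0.0426, 0.0426 and 0.0317) and in none of the other 12 alternatives run. Ileal library ranges lay above the ceco-colonic ones for 7 of the 10 genes and for 21% of all genes tested.

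**Figure D2:**
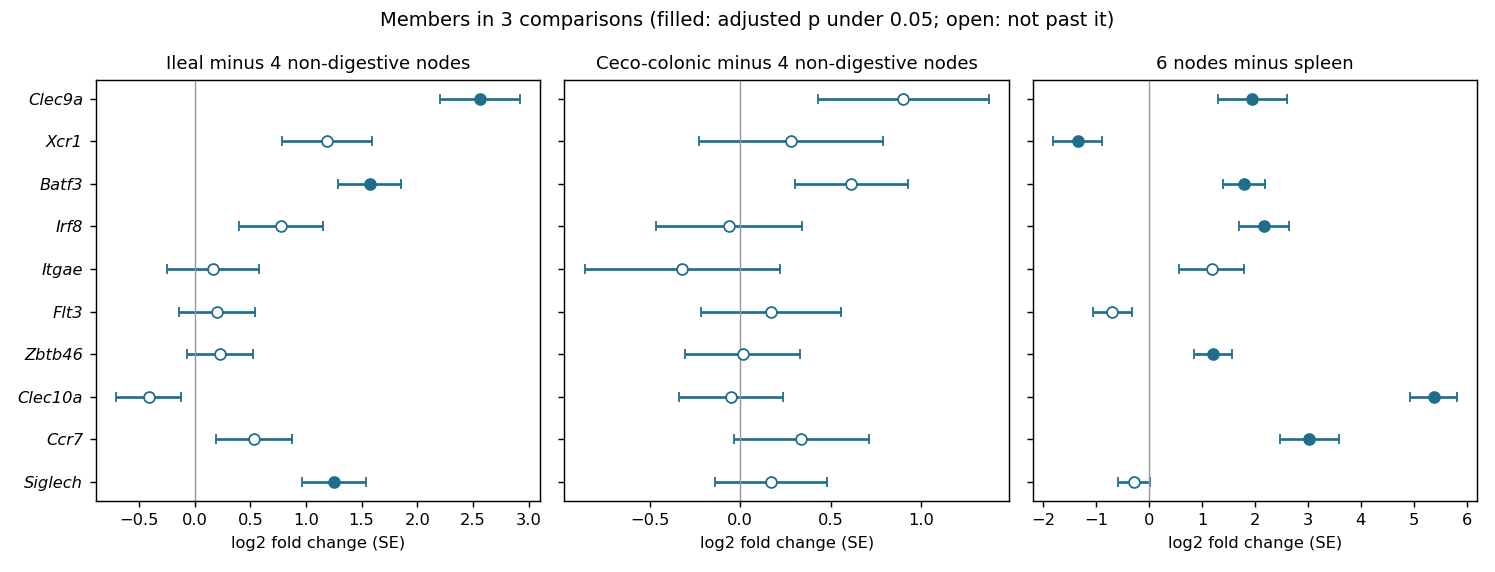
Log2 fold changes of the 10 genes with SE bars in 3 comparisons; filled points passed an adjusted p of 0.05 in edgeR and open points did not. Clec9a, Batf3 and Siglech are filled in the ileal comparison, no gene is in the ceco-colonic one, and Clec10a lies furthest to the right at 5.37 in the comparison of 6 nodes with spleen.

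An F test asked whether a gene differed at all among the 6 node sites, without a direction. It called 8 of the 10 genes, where 56.8% of all genes passed. Ccr7 had the smallest p of the 10 (adjusted p = 8.75e-06, edgeR), followed by Clec9a (3.60e-05), Batf3 (0.000423), Irf8 (0.000566) and Siglech (0.00210). Flt3, Xcr1 and Itgae also passed (adjusted p = 0.00295, 0.00758 and 0.00928), and Clec10a and Zbtb46 did not (0.217 and 0.272). Zbtb46 passed with median-ratio scaling (adjusted p = 0.0384) and in DESeq2 (0.00287), and Itgae and Siglech did not with all 36 libraries in the fit (0.0728 and 0.0807).

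Lists of related genes place the 10 among others of their kind. They overlap the 10 genes, so their counts are not separate from those above. In the ileal comparison 1.62% of all genes tested passed as higher and 1.28% as lower. The counts of each list in that comparison are to be read against these shares. Of 12 cDC1 genes 4 were higher in the ileal node than in the 4 reference nodes and 0 were lower. The list's median log2 fold change was 0.88. Besides Clec9a and Batf3 these were Cadm1, an adhesion molecule of cDC1 (1.54 ± 0.29, adjusted p = 0.00146), and Naaa, an acid amidase (1.19 ± 0.30, adjusted p = 0.0203). Cadm1 averaged 98.6 ± 6.09 CPM in ileal node and 31.6 to 40.6 in the other 5 node sites, and Naaa 35.5 ± 2.72 in ileal node and 12.3 to 20.9 in the others. Of 8 measured cDC2 genes 0 passed in edgeR in either direction, and 0 had an unadjusted p under 0.05.

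Of 11 pDC genes Siglech was higher, and Cox6a2 (-2.73 ± 0.45, adjusted p = 0.000263) and Klk1 (-2.10 ± 0.58, adjusted p = 0.0384) were lower, with a list median of -0.17. Cox6a2, a subunit of cytochrome oxidase also made in striated muscle, averaged 53.9 ± 13.3 CPM in deep cervical node against 1.06 to 4.75 elsewhere in nodes. Klk1, a kallikrein also made in salivary gland, averaged 23.0 ± 29.2 CPM in super cervical node. Of 12 genes of mature or migratory dendritic cells 2 were higher, Apol7c (2.40 ± 0.32, adjusted p = 1.78e-05) and the chemokine Ccl22 (1.51 ± 0.28, adjusted p = 0.00129). Of 11 lineage and development genes 1 was higher, Csf2rb, the shared receptor chain for GM-CSF, IL-3 and IL-5 (1.43 ± 0.28, adjusted p = 0.00214). Of 4 measured ligands of these receptors Cdh1, the E-cadherin that CD103 binds, was lower (-4.07 ± 0.56, adjusted p = 2.59e-05), with 179.4 ± 60.5 CPM in deep cervical node. Flt3l, Ccl19 and Ccl21a did not pass.

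Markers of other cells differed among the same libraries. Of 12 macrophage markers 6 were higher in the ileal node, and their summed level ran from 8279 to 9192 CPM there, from 1168 to 4406 in the 4 reference nodes and from 1579 to 3801 in ceco-colonic node. Of 10 T cell and 8 B cell markers 0 passed in edgeR in that comparison, and 1 T cell and 0 B cell markers had an unadjusted p under 0.05. Summed T cell markers ran from 625 to 779 CPM in mediastinal node, 324 to 372 in ileal and 89.9 to 147.7 in deep cervical node, and from 66.5 to 118.4 in spleen. Summed B cell markers ran from 303 to 409 CPM in deep cervical node and from 1254 to 3151 in the libraries of the other 6 sites. No marker of these 3 lists was at 0 in all libraries of any of the 7 sites. Of 5 lymphatic endothelium markers 4 were higher in the ileal node, among them the hyaluronan receptor Lyve1 (2.43 ± 0.37, adjusted p = 8.77e-05, edgeR) and Prox1, a transcription factor of lymphatic identity (1.67 ± 0.36, adjusted p = 0.00556). Their summed level ran from 223 to 361 CPM in ileal node, from 48.0 to 254 in inguinal, super cervical and deep cervical nodes and from 931 to 1125 in mediastinal node. All 5 epithelium markers, Cdh1 among them, were lower in the ileal node, with summed levels of 4.03 to 6.63 CPM there, 15.6 to 295 in inguinal, super cervical and mediastinal nodes and 842 to 2011 in deep cervical node. Of 5 plasma cell markers Jchain, the joining chain of IgA and IgM, was higher (2.85 ± 0.35, adjusted p = 3.37e-06), and of 7 stromal markers Dcn, encoding decorin, was higher (1.33 ± 0.26, adjusted p = 0.00258). Of 4 NK cell and 4 monocyte markers 0 passed in edgeR, where 1 and 2 had an unadjusted p under 0.05. Whether any of these cell types supplied part of the RNA of the 10 genes was not tested.

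**Figure D3:**
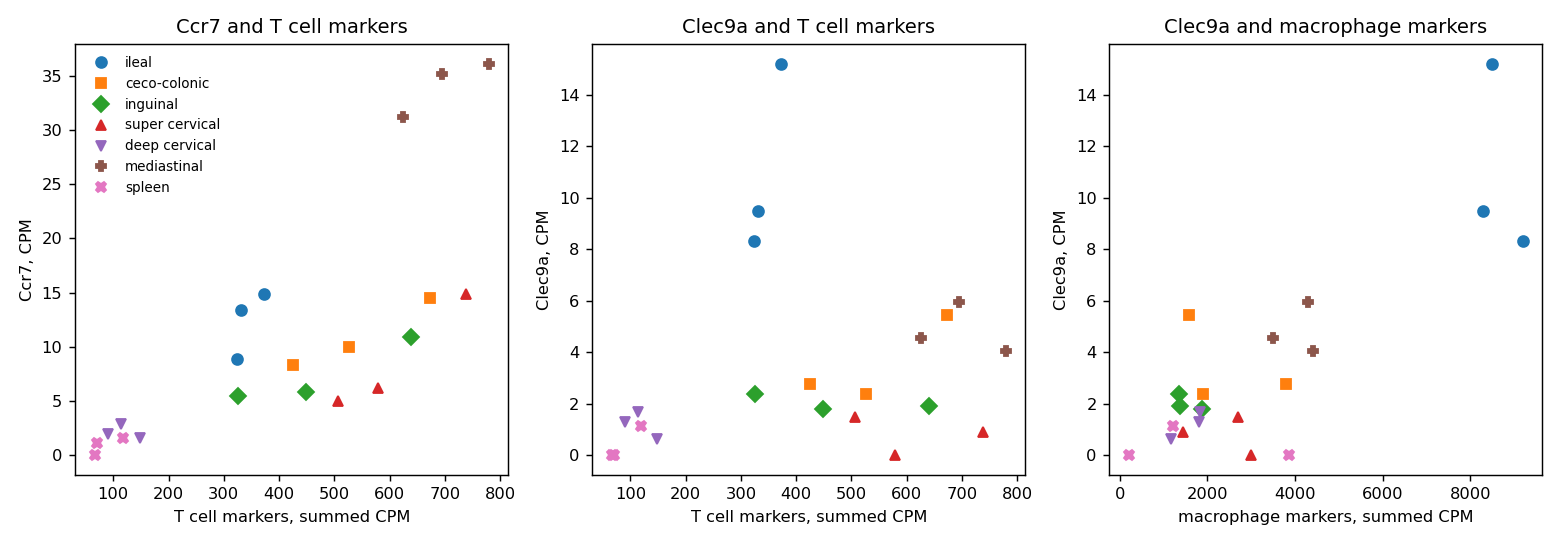
Ccr7 and Clec9a in CPM against the summed CPM of T cell or macrophage markers, 1 point per library with a symbol for each of the 7 sites. The mediastinal libraries are highest in Ccr7 at 625 to 779 CPM of T cell markers, and the ileal libraries are highest in Clec9a at 324 to 372 CPM of T cell markers and 8279 to 9192 CPM of macrophage markers.

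Depth moved with site as well, since the ileal and mediastinal libraries were the deepest. In libraries of 5000000 counts or more, an alternative added after the values were seen, the ileal differences in edgeR were 2.52 for Clec9a, 1.47 for Batf3 and 1.49 for Siglech. Inguinal, super cervical and deep cervical nodes each keep 1 library there and are assumed to vary like the other sites. Adjusted p-values of that fit are therefore not given. Within a site, the deepest library had the highest value for 3 of the 10 genes in inguinal, 4 in super cervical and 6 in deep cervical node. No such share was computed over all genes, so whether depth moved these values was not tested.

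The second kind of contrast set the mean of the 6 nodes against spleen. Clec10a, Ccr7, Irf8, Clec9a, Batf3 and Zbtb46 were higher in nodes, Xcr1 was lower, and Flt3, Siglech and Itgae did not pass. Clec10a rose by 5.37 ± 0.45 on the log2 scale (adjusted p = 4.43e-10, edgeR) and was the 1 gene of the 10 whose node and spleen libraries did not overlap. Of all genes tested 13.1% had every node library above every spleen library. Ccr7 rose by 3.03 ± 0.56 (adjusted p = 5.55e-05), Irf8 by 2.17 ± 0.47 (0.000350) and Batf3 by 1.79 ± 0.39 (0.000359). In all 57.1% of genes passed, 31.4% as higher and 25.7% as lower, and the median over all genes was 0.27 against 1.5 over the 10, so 7 calls of 10 are to be read against that share.

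Each of the remaining calls was lost in 1 or more of the fits that left out a spleen library. Clec9a rose by 1.95 ± 0.65 (adjusted p = 0.0124, edgeR), with 7.13 counts in spleen replicate 2 and 0 in the others. It lost its call without spleen replicate 1 (1.62, adjusted p = 0.0534) or 3 (1.52, 0.0620) and with all 36 libraries in the fit (1.75, 0.0512). Libraries of 5000000 counts or more keep only spleen replicate 2 and no ceco-colonic library. In that fit Clec9a stood at 1.37, Zbtb46 at 0.57, Xcr1 at -0.87 and Flt3 at -0.82. Without replicate 2, whose absence leaves Clec9a and Itgae at 0 in spleen, Itgae passed (adjusted p = 0.00627). Zbtb46 rose by 1.21 ± 0.36 (adjusted p = 0.00523) and lost its call without spleen replicate 3 (0.73, 0.0797) and with all 36 libraries (1.002, 0.108), while without replicate 2 it stood at 2.14. Xcr1 fell by 1.35 on the log2 scale (SE 0.46, adjusted p = 0.0147), and without spleen replicate 3, which held 1165387 counts and 42.7% ribosomal features, it stood at -0.78 (0.204). Flt3, at -0.70 ± 0.37 (adjusted p = 0.105), passed as lower without that library (-0.95, 0.0485), with median-ratio scaling (-0.97, 0.0316) and in DESeq2 (-0.95, 0.0226). Siglech, at -0.29 ± 0.30 (adjusted p = 0.422), passed as lower with median-ratio scaling (-0.63, 0.0433) and in DESeq2 (-0.63, 0.0379).

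The lists of related genes are given beside the share of all genes that passed in this contrast. That share was 57.1% in either direction, 31.4% as higher and 25.7% as lower. A list's share near the one for its direction says nothing particular about the list. Of 12 mature or migratory genes 11 were higher and 0 lower, and the list's median was 3.39 on the log2 scale. Ccl22 rose by 5.21 ± 0.66 and Fscn1, an actin-bundling protein of mature dendritic cells, by 4.25 ± 0.57 (adjusted p = 3.26e-07 and 7.84e-07). Of 12 cDC1 genes 7 were higher and 1 lower, among them Cd8a, which T cells express too (3.94 ± 0.67, adjusted p = 2.10e-05). Of 8 cDC2 genes 4 were higher, including the inhibitory receptor Sirpa (2.34 ± 0.37, adjusted p = 6.70e-06), and Il1rl1 was lower (-2.27 ± 0.38, adjusted p = 1.51e-05). Of 11 pDC genes 5 were higher and 2 lower, with the transcription factor Runx2 at -3.29 ± 0.32 (adjusted p = 5.40e-09). All 4 measured ligands were higher, Ccl21a among them with counts that near-identical copies make uncertain, Ccl19 by 3.68 ± 0.57 and Flt3l by 1.23 ± 0.33 (adjusted p = 5.34e-06 and 0.00275). T cell markers rose as well, 9 of 10, and so did 7 of 12 macrophage and 5 of 5 lymphatic endothelium markers. Their part in these differences was not tested.

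Over all 36 pull-down libraries, duodenal, jejunal and ileal nodes together were set against the 5 sites whose titles name no digestive organ, iliac node included. Clec10a was lower in the small-intestinal nodes (-4.88 ± 0.87, adjusted p = 0.000627, edgeR), and the other 9 genes did not pass. Among 16256 genes 27% passed, 21.7% as lower and 5.3% as higher, and the median over all genes was -0.91 against -1.03 over the 10. The 3 duodenal libraries held 0 counts of Clec10a, so the size of its difference depends on how the model treats zeros. It was -2.36 in limma voom and -2.95 in DESeq2 (adjusted p = 0.000400 and 1.73e-07). Jejunal libraries held 7.93, 48.6 and 3.18 counts of it. The ileal node, the deep small-intestinal site, stood at -0.41 against the 4 deeper reference nodes (adjusted p = 0.686, edgeR). Iliac node, a shallow reference site, held 7.60 CPM of Clec10a pooled on plain totals. Depth thus moved with site in this contrast, and its part in the Clec10a difference was not tested. Irf8, at -0.90 ± 0.43 (adjusted p = 0.108), passed as lower without ribosomal features (-1.17, 0.0438), in DESeq2 (-1.16, 0.0323) and without duodenal replicate 2 (-1.51, 0.0414). Clec9a, at -1.02 in edgeR (adjusted p = 0.885), passed in the opposite direction in limma voom, as higher in the small-intestinal nodes (1.19, adjusted p = 0.0144), and stood at 0.91 in DESeq2 (0.242).

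The 14 shallow libraries said little about the 10 genes. Siglech had more than 3 counts in 9 of them, Irf8 in 6, Clec10a in 5, Xcr1 in 3, Zbtb46 in 2, Clec9a, Flt3 and Itgae in 1 each, and Batf3 and Ccr7 in 0. Summed over libraries, Siglech had 142.4 counts and Ccr7 3.86. A count of 3 corresponds to 3.27 CPM on plain totals in the deepest of them and 13.5 CPM in the shallowest, and the ileal mean of Xcr1, 8.35 CPM on plain totals, lies between these floors. Copies made by PCR are not separate molecules, so these floors describe counting error alone. The single deep jejunal library held 166.6 CPM of Siglech, 41.2 of Clec10a, 28.6 of Irf8, 16.8 of Batf3 and 2.52 of Clec9a on TMM-adjusted totals.

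The isotype control, 1 library of 5002926 counts, gives the background of the pull-down in jejunal node and has no replicate. Clec10a was above it and Siglech was level with it on plain totals. Features with ribosomal sequence held 46.8%, 15.5% and 60.3% of the counts in jejunal replicates 1, 2 and 3 and 6.50% in the isotype library. Plain totals include these features, which lowers the jejunal CPM more than the isotype CPM. CPM without them was not computed, so these levels hold for plain totals only. On plain totals, Clec10a had 16.0, 24.9 and 12.4 CPM in the 3 jejunal libraries against 1.02 CPM in the isotype library (95% exact Poisson interval 0.325 to 2.33, counting error only). Siglech had 90.8, 101.3 and 63.7 CPM (mean 85.2 ± 19.4, SD, n = 3) against 85.1 CPM (77.3 to 93.6), a log2 ratio of 0.0023. With TMM scaling the jejunal mean of Siglech lay 45.1 CPM below the isotype value and that of Flt3 9.11 CPM below it. Against that isotype level, the plain-total mean of Siglech was above the interval in 2 of the 7 deeper sites, ileal at 134.2 and mediastinal at 98.4 CPM. Clec10a means of 130.5 to 261.3 CPM in the 6 nodes were above its isotype interval. The spleen mean of 2.55 CPM lay just past the interval's end at 2.33 CPM. Of the spleen libraries only replicate 3, the shallowest deep library, was above that end.

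Flt3 was higher on plain totals in the isotype library, at 9.12 CPM (6.73 to 12.3), than in any jejunal pull-down (6.31, 6.48 and 0). Of the 7 deeper sites only mediastinal node, at 14.2 CPM, had a mean above that interval. Irf8 had 19.1, 17.4 and 8.61 CPM against 7.93 (5.71 to 10.9), and Batf3 2.01, 10.1 and 0 against 2.43 (1.24 to 4.19). Clec9a and Batf3 means in the ileal node, at 13.8 and 46.4 CPM on plain totals, were above isotype intervals that ended at 1.11 and 4.19 CPM. Itgae was at 0 in the 3 jejunal libraries, where 3 counts correspond to 6.06, 1.54 and 11.7 CPM, and at 0.980 CPM in the isotype library. The jejunal mean exceeded the isotype value for 8 of the 10 genes, for 7 with TMM scaling and for 5 without jejunal replicate 2. The share over all genes was not computed, so this count says nothing particular about the 10. Jejunal replicate 3, with 256282 counts, supplied the values of 14.0 CPM for Clec9a and 11.7 for Xcr1, on 3.60 and 3.0 counts.

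**Figure D4:**
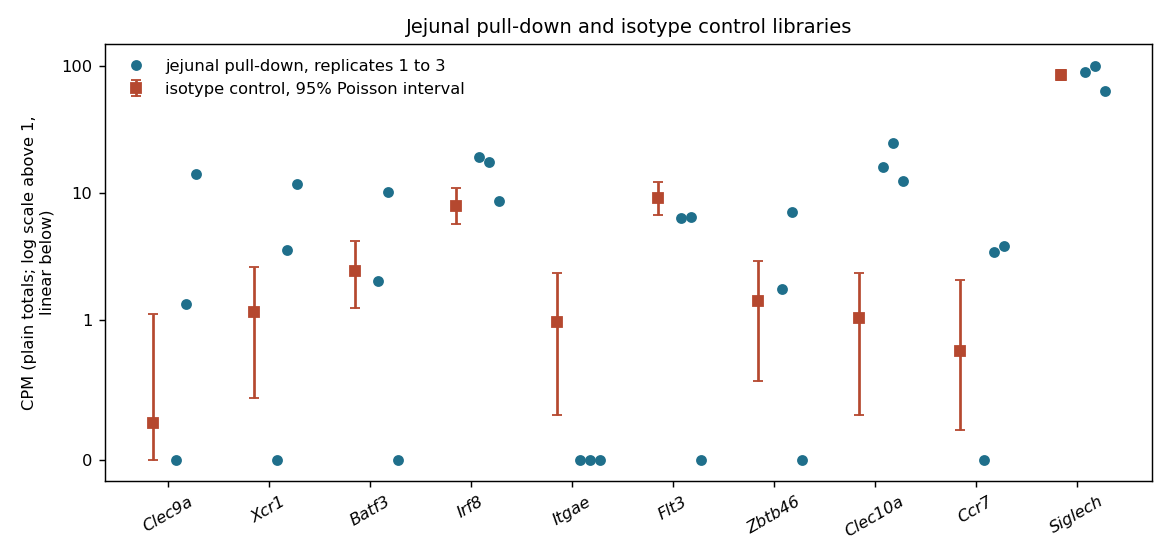
CPM on plain library totals for the 10 genes in the isotype control (square, 95% exact Poisson interval) and the 3 jejunal pull-downs (points), on an axis that is logarithmic above 1 and linear below. Siglech sits at 85.1 CPM in the isotype library amid pull-down values of 63.7 to 101.3, and Clec10a pull-down values of 12.4 to 24.9 lie above the isotype interval.

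Genes whose pattern was most like that of each member were ranked by Pearson r of log2 CPM over the 21 libraries of 7 sites, among 8867 genes averaging 5 CPM or more. These r are a description, since libraries of a site share it and depth varies with site. Batf3 was most like Csf2rb (r = 0.95), then Tmem268 (0.94) and H2-DMb1 (0.93). Irf8 was most like H2-K1 (0.97), whose counts are uncertain because of near-identical family members, Pou2af1 (0.96) and Epsti1 (0.96). Ccr7 was most like Cd8a (0.96), Cd79a (0.96) and Zap70 (0.95), genes of T and B lymphocytes. Clec10a was most like Fabp1, Rassf1 and Il1rn (0.97, 0.97 and 0.95) and Zbtb46 like S100a16, Sec63 and Pdia3 (0.97 each). The nearest genes were less close for Siglech (Gpr65, 0.85), Flt3 (Traf1, 0.85) and Xcr1 (Or5b123, 0.76).

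Among the 10 genes themselves, over the same 21 libraries, Itgae and Ccr7 were most alike (r = 0.88), then Batf3 and Irf8 (0.87) and Irf8 and Itgae (0.83). Clec9a had r = 0.78 with Batf3 and 0.79 with Irf8. Xcr1 was at -0.18 with Clec9a and -0.09 with Batf3, although all 3 mark cDC1, and at 0.59 with Siglech. These r include spleen replicate 3, with 18.8 CPM of Xcr1 and 42.7% ribosomal features, and were not computed without it. Clec9a and Itgae averaged under 5 CPM and Xcr1 5.04 CPM, so their values carry more counting error than those of the other genes. Over the 6 nodes alone Xcr1 averaged 4.24 CPM, beside 3.90 for Clec9a.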

How the data were processed

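Per the labels' protocols, RNA from haemagglutinin immunoprecipitation of CD169-Cre RiboTag tissue was purified with a PicoPure kit and sequenced as polyadenylated RNA. The deposited table holds the authors' estimated counts per gene, with no scaling applied across libraries. The tools kallisto, limma and edgeR are named, per the submitters' processing notes, with builds GRCm39 and mm10 and no version or role, so no coordinates come from the files. How transcripts became genes and whether strand was used are not given in the sources used here. Of the values 32.8% were not whole and were rounded for tests. kallisto divides reads among near-identical transcripts, so paralogs are uncertain.

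Computed here: edgeR 4.0.16 in R 4.3.3, filterByExpr (minimum count 10, minimum total 15), TMM scaling, robust quasi-likelihood fits with 1 mean per site and Benjamini-Hochberg adjustment over all genes tested, threshold 0.05. The main fit held the 22 pull-down libraries of 1000000 counts or more (19651 genes), and another all 36 (16256 genes). Site means are CPM from rounded counts on TMM-adjusted totals with SD, and isotype comparisons use plain totals. The 211 genes without a symbol held 0.0159% to 0.115% of a library's counts. The 36 replicate pairs differed by a chi-square per degree of freedom of 13.2 to 221, so none was 1 library deposited in duplicate. Alternatives were DESeq2 1.42.0, limma voom 3.58.1, median-ratio scaling, no filter, no ribosomal features, a replicate block, each replicate or reference site left out, and site means as replicates. In simulated data with equal site means otherwise, 200 genes averaging 5 CPM or more were changed 4-fold in the ileal node. Of them 87.5% were recovered, with 13 false calls among 188 calls over 19651 genes. Clec9a and Itgae averaged under 5 CPM, so this recovery does not cover them.

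The 10 genes, the other gene lists (cDC1, cDC2, pDC, mature or migratory, lineage and development, receptor ligands, and markers of T cells, B cells, macrophages and 6 other types) and the comparisons were chosen with earlier results of these data known. All 10 are named, then from a list up to 4 called genes of largest change, and for likeness the 3 genes of highest r (log2 CPM, prior count 2). Genes named beyond these, and the mediastinal reference, were chosen after their values were seen. RefSeq sequences were matched by symbol.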

Additional observations from a re-analysis of the deposited data

Results flagged for a closer look

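The pDC list held 1 gene whose change against the 4 reference nodes differed between the 2 intestinal sites in a test of that difference. Lair1, an inhibitory collagen receptor, was 2.44 ± 0.52 higher on the log2 scale in ileal than in ceco-colonic node (adjusted p = 0.0356, edgeR), with 22.4 ± 4.10 against 4.07 ± 0.64 CPM (SD, n = 3 each) and all 3 ileal libraries higher. It was the 1 gene past the threshold of 58 dendritic cell and ligand genes examined, and mediastinal node averaged 29.1 ± 5.06 CPM.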

How the results depend on the processing

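Clec9a and Batf3 stayed higher in the ileal node in all 29 alternatives run and past the threshold in 27; the exceptions were the mediastinal node as the sole reference and site means as replicates. Siglech stayed past it in 22 and Xcr1 reached it in 4. Of 1568 values of the 10 genes under an alternative 48 changed sign, and 0 of these had passed in the reported fit. Of the 48, 2 passed under the alternative: Clec9a in the small-intestinal comparison in limma voom, and Ccr7 in the ileal one against mediastinal node alone. Depth limits Clec9a, Xcr1 and Itgae in spleen and all 10 genes in the 14 shallow libraries. The cause of the changes below was not tested.

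In the ileal comparison 570 genes passed, against 915 without a filter, 1019 in limma voom, 891 in DESeq2, 280 with all 36 libraries, 1110 and 336 without inguinal and deep cervical node among the references, 3010 against mediastinal node alone and 5901 in libraries of 5000000 counts or more, and 0 with site means (80 at an unadjusted p under 0.05). Of the 10 genes 3 passed, against 5 without mediastinal node, 0 with site means and 1 against mediastinal node alone. In the ceco-colonic comparison 811 passed, 556 higher and 255 lower, against 387 and 392 with median-ratio scaling, which moved the median of all genes from -0.08 to -0.23, and 720 and 1154 in DESeq2, 1874 in all. It was 1645 without a filter, 203 with all 36 libraries, 3484, 2380, 76 and 106 without inguinal, super cervical, deep cervical and mediastinal node, and 0 with site means (253 at an unadjusted p under 0.05). Between ileal and ceco-colonic node 52 passed, against 105 with median-ratio scaling, 509 without a filter, 79 without ribosomal features, 96 in limma voom, 611 in DESeq2, where 3 of the 10 genes passed, and 34 with all 36 libraries. With all 36 libraries 7002 genes differed among nodes in place of 11163. In the small-intestinal comparison 2 of the 10 genes passed in place of 1 without ribosomal features, in limma voom and in DESeq2. Median-ratio scaling moved the median of all genes from 0.27 to 0.089 in nodes against spleen.

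Leaving out 1 replicate at a time gave 236 to 675 genes in the ileal comparison, 62 to 1993 in the ceco-colonic one, 3 to 66 between these 2 nodes and 2858 to 5234, with 1 to 2 of the 10 genes, in the small-intestinal one, and 5 to 8 of 10 jejunal means above the isotype. The low ends came without ileal replicate 2, ceco-colonic replicate 3 (both ceco-colonic comparisons) and duodenal replicate 3. Values of genes that had not passed ranged over -0.015 to 0.33 for Itgae in the ileal comparison and -0.17 to 0.28 for Flt3 between ileal and ceco-colonic node. In the ceco-colonic comparison they ranged over -0.19 to 0.088 for Clec10a, -0.086 to 0.36 for Flt3, -0.045 to 0.065 for Zbtb46, -0.15 to 0.13 for Irf8 and -0.26 to 0.41 for Siglech. In the small-intestinal one the ranges were -1.45 to 0.29 for Clec9a, -2.34 to 0.83 for Xcr1, -3.39 to 0.66 for Zbtb46 and -0.49 to 0.079 for Siglech.

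Other signs that changed, all of values that had not passed in the reported fit: Zbtb46 in the ceco-colonic comparison was -0.14 with median-ratio scaling and in DESeq2, -0.018 without a filter, -0.011 with all 36 libraries, and -0.063 and -0.14 without inguinal and super cervical node. There Irf8 was 0.022 in limma voom, 0.066 with site means and 0.50 without mediastinal node, which also put Clec10a at 0.047 and Itgae at 0.020. Clec10a was 0.013 without inguinal node. Without deep cervical node Xcr1 was -0.21, Flt3 -0.37, Ccr7 -0.31 and Siglech -0.12 there, and Flt3 -0.34, Itgae -0.40 and Ccr7 -0.11 in the ileal comparison. Against mediastinal node alone Flt3, Irf8, Itgae and Ccr7 were -0.73, -0.90, -0.85 and -1.46, and in libraries of 5000000 counts or more Itgae was -0.022. Between ileal and ceco-colonic node Flt3 was -0.0069 with all 36 libraries. In the small-intestinal comparison Clec9a, at -1.02 in edgeR, was 1.19 in limma voom, where it passed as higher (adjusted p = 0.0144), and 0.91 in DESeq2, where it did not.

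No label says that a replicate number marks a shared animal or batch, and not every same-numbered pair correlated above 0.1, so the libraries were not treated as paired. Over 63 same-numbered pairs the correlation of deviations from site means ran from -0.31 to 0.43 (median 0.021, against -0.021 for other numbers) and 16 were above 0.1. Of 21 libraries 12 correlated best with their own number, where an equal share over the 3 numbers is 7. With the number as a replicate block 601 genes passed in the ileal comparison, 1154 in the ceco-colonic one, 102 in place of 52 between ileal and ceco-colonic node, 11073 against spleen, 11287 among nodes and 4389 in the small-intestinal one. Irf8 in the ceco-colonic comparison stood at 0.041 with the block, and the block changed no call of the 10 genes.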
